A study of Mus musculus with 3 samples.

Results

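The clustered protocadherins are neural cell adhesion proteins encoded by neighbouring alpha, beta and gamma gene clusters, which lie on mouse chromosome 18 in the GENCODE annotation of GRCm38. They were chosen by name, as every counted symbol that starts with Pcdha, Pcdhb or Pcdhg. There were 53 such genes among the 17992 counted. Of these, 11 belonged to the alpha cluster, 21 to the beta cluster and 21 to the gamma cluster. RNA was sequenced from brains of adult C57BL/6 mice of WT genotype, with 1 library per group. The AGNHW library came from mice given AGNHW at 3 mg/g/d. The vehicle library came from the group named as the middle cerebral artery occlusion model, in which an artery to the forebrain is blocked to give an ischaemic stroke. The sham library was the control. Occlusion is named in the labels with the vehicle group only, and whether AGNHW mice were occluded is not said. Neither the brain region, the time of sampling nor the number of mice pooled is stated in the labels. The libraries held 18184691 counts in AGNHW, 15718594 counts in vehicle and 18286151 counts in sham.

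In the alpha and gamma clusters, each isoform starts from its own promoter with 1 long variable exon, which is spliced to constant exons shared by the whole cluster. A beta gene is a single coding exon with no shared constant part. The encoded proteins bind like with like between cells, and single neurons use different mixtures of isoforms, which serves the recognition of self by dendrites and axons. Most isoforms, called alternate here, are chosen by chance in each neuron. The 5 C-type isoforms (Pcdhac1, Pcdhac2, Pcdhgc3, Pcdhgc4 and Pcdhgc5) are under separate control and are used by whole classes of neurons. The transcription factor CTCF and the cohesin ring join promoters of these clusters to distant enhancers.

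The vehicle library held less clustered protocadherin RNA than either of the others. Summed over the 53 genes there were 5552 counts in AGNHW, 3414 counts in vehicle and 5705 counts in sham. These were 304 CPM in AGNHW, 224.5 CPM in vehicle and 303.2 CPM in sham, where CPM is the count scaled to a common library size by the trimmed mean of M-values. The summed level in vehicle was 1.35-fold lower than in sham (95% counting interval 1.29 to 1.41), and in AGNHW it was 1.35 times that in vehicle (1.30 to 1.41). The AGNHW level was 1.003 times the sham level (0.966 to 1.04). These comparisons share libraries, since the vehicle library stands in the first 2 of them, so their values are set side by side and not counted as separate evidence. Intervals cover counting error only. With 1 library per group there was no replicate check and no test between conditions, and every difference is one between libraries. In RNA from brain tissue, fewer cells of a type and less RNA per cell cannot be told apart.

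The alpha cluster differed most between vehicle and sham. It held 324 counts in AGNHW, 148 counts in vehicle and 460 counts in sham. The vehicle level was 2.51-fold lower than the sham level (2.08 to 3.04). The beta cluster had 1400 counts in AGNHW, 901 counts in vehicle and 1546 counts in sham, which put vehicle 1.39-fold below sham (1.28 to 1.51). The gamma cluster had 3828 counts in AGNHW, 2365 counts in vehicle and 3699 counts in sham, and its ratio of vehicle over sham was 0.791 (0.751 to 0.833). The alpha interval thus did not overlap those of the other two clusters. In AGNHW over vehicle the ratios were 1.82 for alpha (1.496 to 2.23), 1.29 for beta (1.19 to 1.41) and 1.35 for gamma (1.28 to 1.42). Against sham, the AGNHW library stood at 0.726 for alpha (0.628 to 0.838), 0.933 for beta (0.867 to 1.004) and 1.07 for gamma (1.02 to 1.12). The alpha sum in AGNHW therefore lay between those of vehicle and sham.

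**Figure D1:**
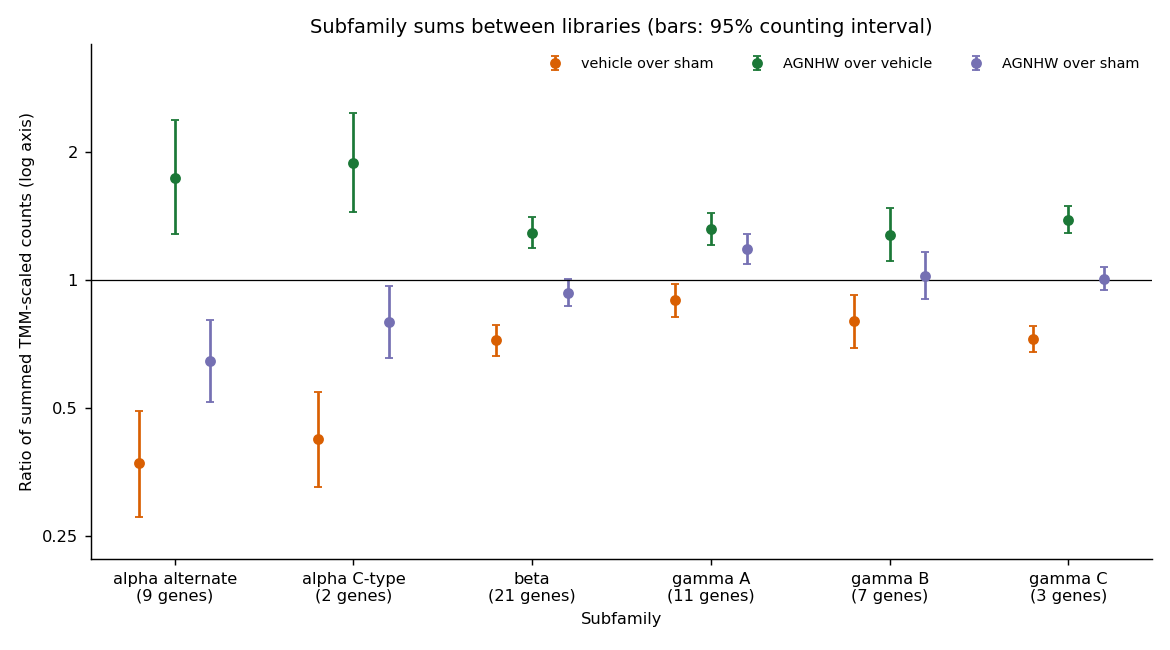
Ratio of the summed TMM-scaled counts of each subfamily (log axis) for vehicle over sham, AGNHW over vehicle and AGNHW over sham, 1 library per group; bars are 95% counting intervals. Vehicle over sham lies below 1 in every subfamily and lowest in the alpha ones, AGNHW over vehicle lies above 1 in every subfamily, and AGNHW over sham lies below 1 in the alpha subfamilies, with intervals that leave out 1.

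The same was seen in the makeup of the family. Alpha isoforms made up 5.84% of all clustered protocadherin counts in AGNHW (exact binomial 95% interval 5.23 to 6.49), 4.34% in vehicle (3.68 to 5.07) and 8.06% in sham (7.37 to 8.80). The gamma share was 68.95% in AGNHW, 69.3% in vehicle and 64.8% in sham. The beta share was 25.2% in AGNHW, 26.4% in vehicle and 27.1% in sham. The C-type isoforms made up 52.3% of the alpha and gamma counts in AGNHW, 50.7% in vehicle and 54.5% in sham, so a few isoforms held about as many counts as all alternate isoforms of both clusters.

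**Figure D2:**
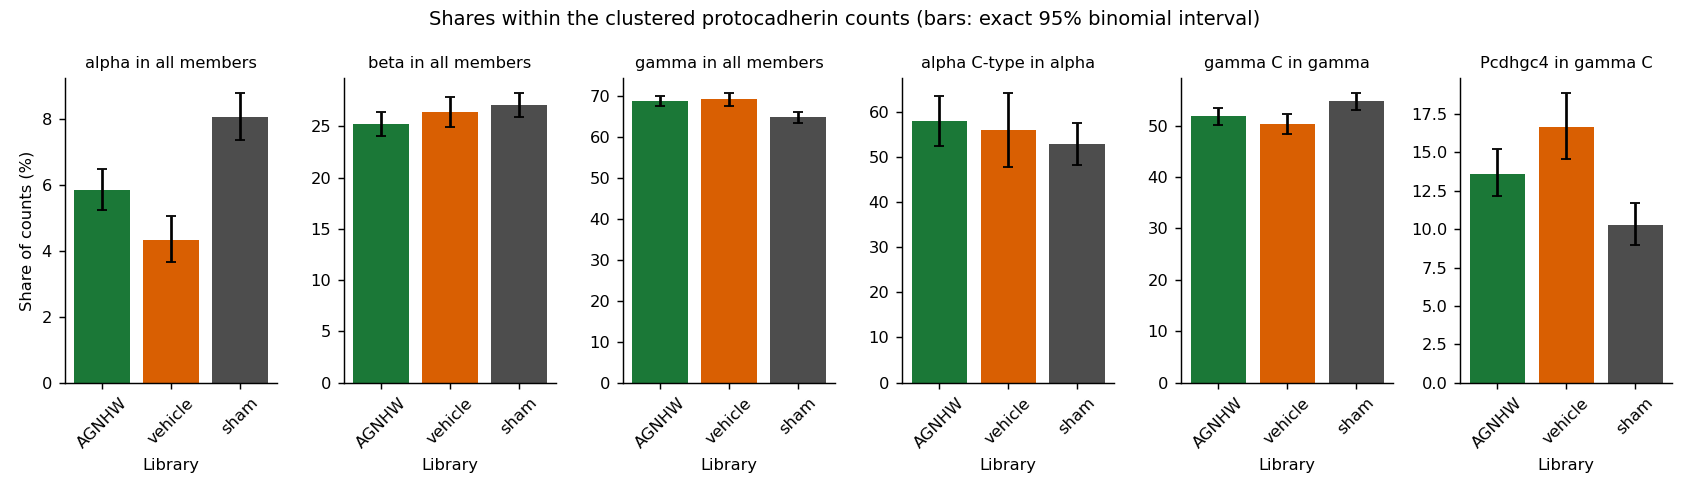
Shares in percent of clustered protocadherin counts in the AGNHW, vehicle and sham libraries (1 library each), with exact 95% binomial intervals. The alpha share is 5.84% in AGNHW, 4.34% in vehicle and 8.06% in sham, while the share of Pcdhgc4 within the gamma C-type counts is highest in vehicle at 16.6%.

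Levels of single isoforms were low. Of the 53 genes, 44 averaged at least 1 CPM over the libraries, and 40 of these 44 lay between 1 and 10 CPM. The 4 above 10 CPM were Pcdhb22, Pcdhgc3, Pcdhgc4 and Pcdhgc5. The 9 below 1 CPM were Pcdha1, Pcdha2, Pcdha6, Pcdha7, Pcdha9, Pcdha10, Pcdhac1, Pcdhb2 and Pcdhb21. To compare genes, CPM was divided by the exon length in kilobases that the exons of no other annotated gene overlap. This length, called unshared here, was available for 52 of the 53. It was found by position, so similar sequence in other members was not looked for and reads may be ambiguous there too. On this per-length scale Pcdhgc5 and Pcdhgc3 stood highest. Pcdhgc5 was at 14.7 CPM per kb in AGNHW, 10.2 in vehicle and 15.6 in sham. Pcdhgc3 was at 14.3 CPM per kb in AGNHW, 10.1 in vehicle and 13.7 in sham. The order of these genes is not settled, since their levels were close in AGNHW and vehicle and how reads in shared exons were assigned is not known. The next was the alternate isoform Pcdhga11, at 7.19 CPM per kb in AGNHW, 5.44 in vehicle and 5.97 in sham. Its place depends on a short unshared length of 1256 bp and is not settled either. By mean CPM it stood at 7.79, below Pcdhgc4 at 12.95, among others. Alpha alternate isoforms reached at most 0.761 CPM per kb in AGNHW, 0.307 in vehicle and 0.817 in sham. Pcdhac2, at 3.22 CPM per kb in AGNHW, 1.58 in vehicle and 3.76 in sham, was well above every other alpha isoform.

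**Figure D3:**
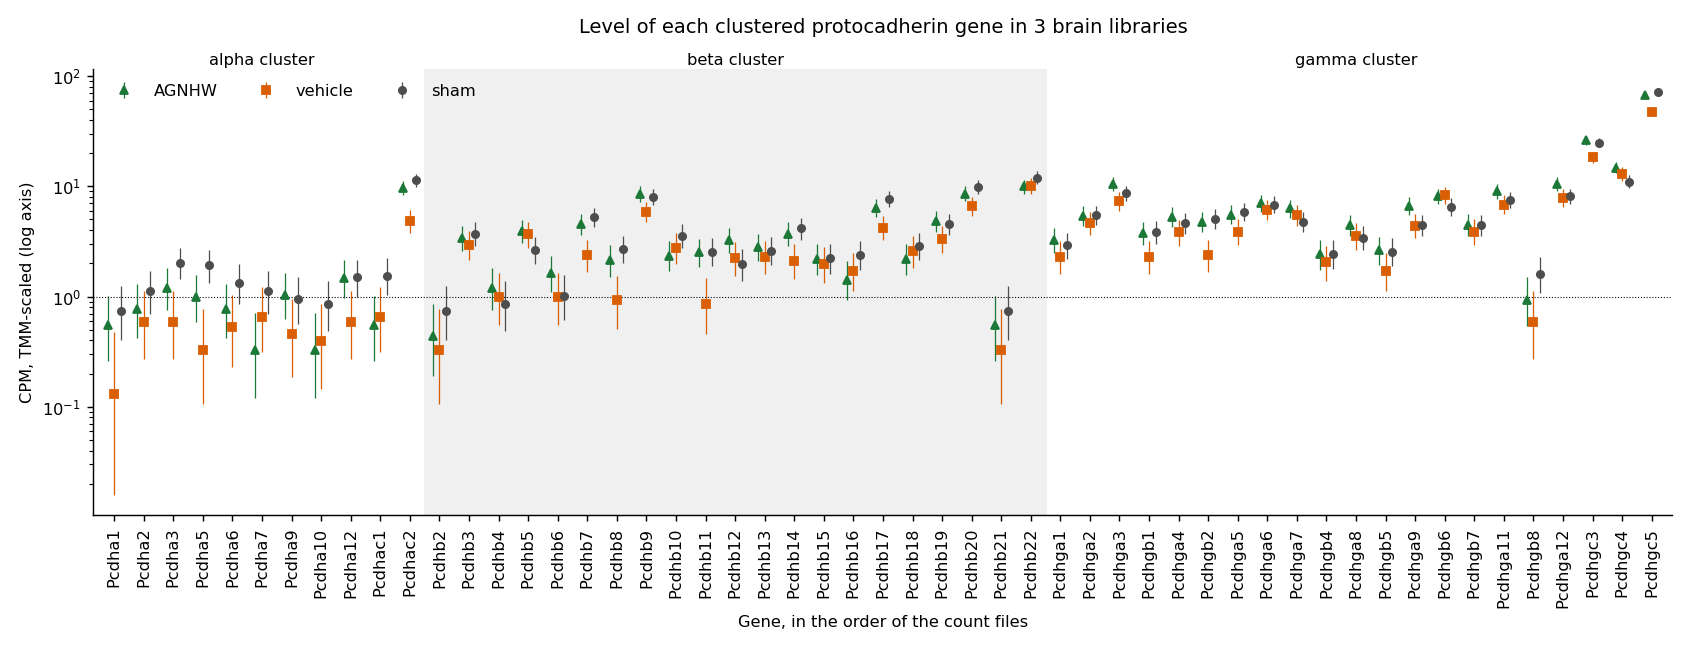
Level of each of the 53 genes in CPM (log axis) in the AGNHW, vehicle and sham libraries, in the order of the count files, with exact 95% counting intervals; the dotted line marks 1 CPM. Pcdhgc5 and Pcdhgc3 stand highest, and the alpha alternate isoforms lie around or under 1 CPM.

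A size rule was used to count single genes. A gene passed it with a mean of at least 1 CPM, a ratio of at least 1.5 in either direction and a 95% counting interval that did not include 1. For vehicle against sham, 14 of the 44 genes above 1 CPM passed as lower, none passed as higher and 30 did not pass. Among all 15558 genes above 1 CPM, 14.2% passed as lower and 8.66% as higher. Among the 5459 genes between 1 and 10 CPM, where most of these isoforms lie, 17.8% passed as lower and 11.7% as higher. The share of members that passed as lower was above both of these backgrounds, and none passed as higher. With no minimum CPM, 17 of the 53 were lower and none higher, beside 13.5% lower and 8.46% higher of all counted genes. The ratio was below 1 in 46 of the 53 genes, and the median log2 ratio over the 53 was -0.44. Over the 44 members above 1 CPM the median was -0.31. It was 0.01 over all genes above 1 CPM and -0.06 over those between 1 and 10 CPM. For AGNHW against vehicle, 11 passed as higher, none as lower and 33 did not pass, beside 4.01% higher and 2.56% lower of all genes, and 8.92% higher between 1 and 10 CPM. The ratio of AGNHW over vehicle was above 1 in 45 of the 53, with a median log2 ratio of 0.44. For AGNHW against sham, 2 passed as higher, 3 as lower and 39 did not pass, beside 3.32% higher and 5.47% lower of all genes, so the shares of members were near the background. The median log2 ratio there was -0.02.

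**Figure D4:**
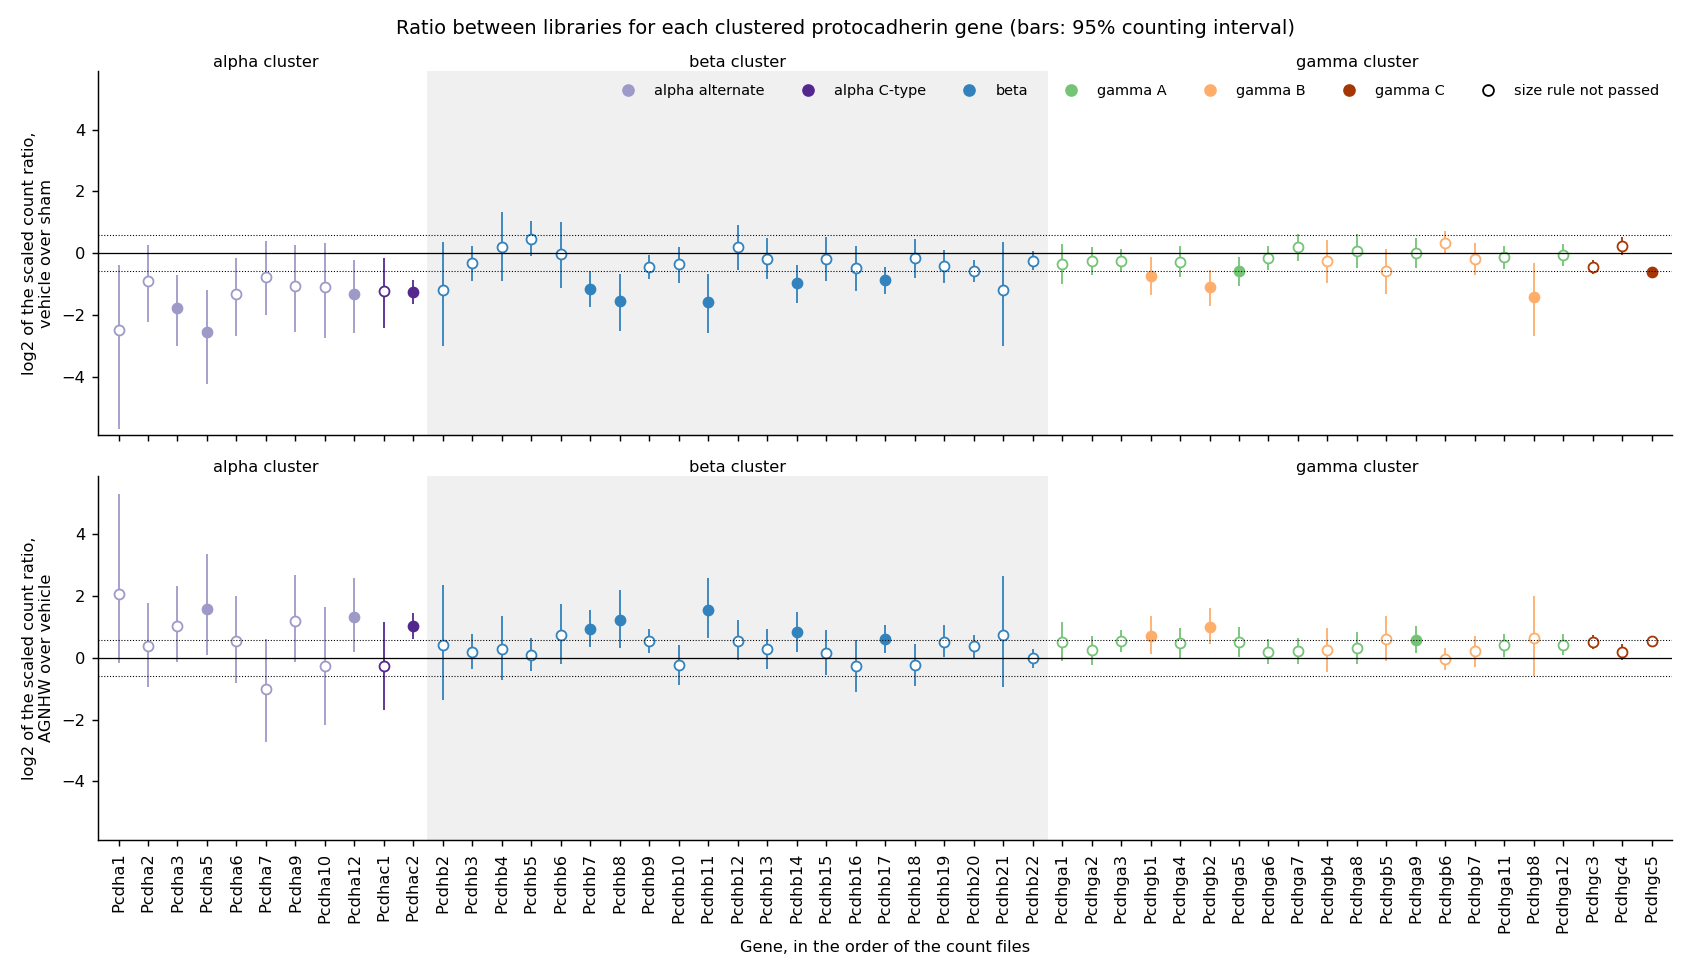
Log2 of the scaled count ratio of each gene for vehicle over sham (upper panel) and AGNHW over vehicle (lower panel), in the order of the count files, with 95% counting intervals; filled points passed the size rule and dotted lines mark its limit of 1.5. Points lie below 0 for 46 of 53 genes in the upper panel and above 0 for 45 of 53 in the lower one, and the vehicle library is in both.

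Ratios in these libraries followed the length and GC content of transcripts over all genes, and this bears on the counts of members. A smooth trend with both properties accounted for 49.9% of the spread (variance) of log2 vehicle over sham among 9934 genes of at least 10 CPM. It took up 28.8% for AGNHW over vehicle and 40.5% for AGNHW over sham. These shares were large, so the members were also counted with the trend subtracted. After subtraction of the trend read at annotated transcripts, vehicle against sham had 10 members lower and 1 higher, beside 6.54% lower and 4.43% higher of all genes. AGNHW against vehicle had 7 members higher and none lower, beside 3.18% higher and 1.58% lower of all genes, as Pcdha5, Pcdhb14, Pcdhb17 and Pcdhga9 no longer passed. AGNHW against sham had 3 members higher and none lower, beside 2.9% higher and 3.0% lower of all genes. By this reading fewer members thus passed in the first 2 comparisons, and in AGNHW against sham no member stayed lower. After correction, shares were computed over all genes only and not among those between 1 and 10 CPM, so they do not match the members in depth.

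What the correction takes off depends on which sequence stands for a gene. Read at the annotated transcripts, which include the constant exons, the trend for vehicle over sham had a median log2 value of -0.34 at alpha genes, -0.31 at beta genes and -0.03 at gamma genes. Read at the unshared exon sequence, these medians were 0.19 for alpha, -0.32 for beta and 0.09 for gamma. The unshared sequence of beta genes had a median GC content of 45.82%, beside 52.97% for alpha and 51.32% for gamma. The readings thus differed in sign for alpha and gamma and were close for beta. The alpha sum after correction was 2.06-fold lower in vehicle than in sham by transcripts and 2.93-fold lower by unshared sequence. The beta sum was 1.07-fold and 1.08-fold lower in vehicle by these readings, and the gamma sum 1.26-fold and 1.32-fold lower. The alpha and gamma sums thus stayed lower in vehicle by both readings, while the beta sums came close to equal.

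The counts of members also depended on the reading. By unshared sequence, 12 members were lower and 1 was higher in vehicle than in sham, beside 6.55% lower and 4.43% higher of all genes. For AGNHW against vehicle 11 were higher and none lower, beside 3.21% higher and 1.58% lower of all genes. For AGNHW against sham 3 were higher and 2 lower (Pcdha3 and Pcdha5), beside 2.9% higher and 3.02% lower of all genes. Pcdha12 and Pcdhga5 thus passed as lower in vehicle than in sham by unshared sequence but not by transcripts. Pcdha5, Pcdhb12, Pcdhga4 and Pcdhga11 did so as higher in AGNHW than in vehicle. The 11 by unshared sequence were not the same genes as the 11 without correction. They shared 8, since Pcdhb14, Pcdhb17 and Pcdhga9 no longer passed and Pcdhb12, Pcdhga4 and Pcdhga11 came in. Which reading fits the deposited counts was not tested.

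**Figure D5:**
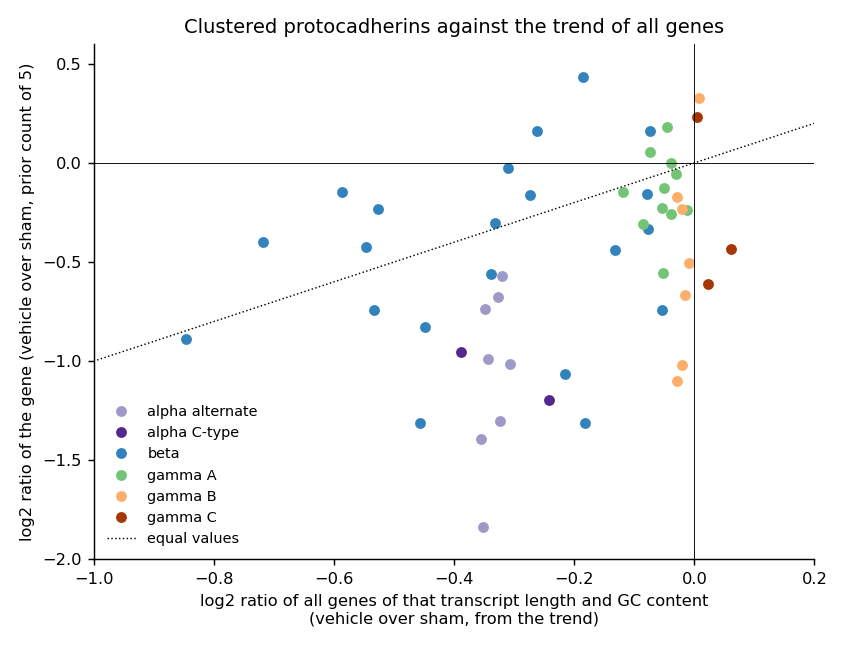
Log2 ratio of vehicle over sham of each clustered protocadherin (vertical axis, prior count of 5) against the value predicted from transcript length and GC content by the trend over all genes (horizontal axis). Alpha isoforms fall below the line of equal values, while beta genes scatter on both sides of it.

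All 11 alpha isoforms had a ratio of vehicle over sham below 1. Among the alternate ones, which provide most of the diversity of the cluster, counts ranged between 6 and 27 in AGNHW, 2 and 10 in vehicle, and 14 and 38 in sham. After scaling for library size, the highest vehicle level was 0.66 CPM (Pcdha7) and the lowest sham level 0.74 CPM (Pcdha1). Isoforms of 1 library are not replicates of a condition, and such a gap was not sought among other genes. Of the alternate isoforms, 3 averaged above 1 CPM, which they reached through their sham or AGNHW levels, and these passed as lower in vehicle than in sham. Of the 6 below that mean, Pcdha1 and Pcdha6 had intervals under 1 for vehicle over sham, and those of Pcdha2, Pcdha7, Pcdha9 and Pcdha10 included 1. Pcdha3 had 22 counts in AGNHW, 9 in vehicle and 38 in sham, and was 3.41-fold lower in vehicle than in sham (1.62 to 8.03). Pcdha5 had 18 counts in AGNHW, 5 in vehicle and 36 in sham, and its vehicle level was 5.82-fold lower (2.28 to 19.0), the lowest ratio of the family among genes above 1 CPM. Pcdha12 had 27 counts in AGNHW, 9 in vehicle and 28 in sham, and was 2.52-fold lower in vehicle (1.15 to 6.06), a difference that passed after the trend correction by unshared sequence but not by transcripts. The intervals are wide at such low counts.

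Against vehicle, the AGNHW library was higher in Pcdha5, at 3.00 times (1.07 to 10.3), and in Pcdha12, at 2.50 times (1.14 to 6.04). Pcdha3 stood at 2.04 times but its interval included 1. Pcdha7 lay on the other side, with 6 counts in AGNHW, 10 in vehicle and 21 in sham. Summed over the 9 alternate alpha isoforms there were 136 counts in AGNHW, 65 in vehicle and 217 in sham. The AGNHW sum was 1.74 times that of vehicle (1.29 to 2.38) and 0.646 times that of sham (0.517 to 0.804). Pcdha5 alone passed as lower in AGNHW than in sham, by 1.94-fold (1.07 to 3.63). After the correction it did not pass by transcripts but did by unshared sequence, where Pcdha3 passed as lower too.

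The alpha C-type isoforms had unlike ratios of AGNHW over vehicle, that of Pcdhac1 from few counts. Pcdhac2, which in mice is needed for the even spread of serotonergic axons, had 178 counts in AGNHW, 73 in vehicle and 214 in sham. It was 2.37-fold lower in vehicle than in sham (1.81 to 3.14) and 2.03 times higher in AGNHW than in vehicle (1.54 to 2.71), and passed both ways after the trend correction. Pcdhac1, the more sparsely expressed of the pair, had 10 counts in AGNHW, 10 in vehicle and 29 in sham, so its AGNHW count matched vehicle. Its ratio was 0.833 for AGNHW over vehicle (0.311 to 2.23) and 0.355 for AGNHW over sham (0.15 to 0.75). The first interval includes the Pcdhac2 ratio, and the second overlaps that of Pcdhac2 (0.70 to 1.05). These counts therefore do not show that the pair differed. The mean of Pcdhac1 below 1 CPM kept it out of the size rule. The alpha C-type sum in AGNHW was 1.89 times the vehicle sum (1.45 to 2.47), and this rested on Pcdhac2. Pcdhac2 made up 54.9% of alpha counts in AGNHW, 49.3% in vehicle and 46.5% in sham.

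Serotonergic neuron markers were measured beside Pcdhac2. Of 9 measured, 6 passed as higher and none as lower in vehicle than in sham, and their summed level was 79.0 CPM in AGNHW, 98.5 CPM in vehicle and 57.6 CPM in sham. The serotonin transporter Slc6a4 had 20 counts in AGNHW, 103 in vehicle and 1 in sham. Tph2, the enzyme that starts serotonin synthesis in neurons, had 21 counts in AGNHW, 64 in vehicle and 16 in sham. The vehicle library was highest in 5 of the 9 markers and in their sum, and lowest in Pcdhac2. The vesicular transporter Slc18a2 was lowest in vehicle, with 7.34 CPM in AGNHW, 5.06 CPM in vehicle and 6.48 CPM in sham, so the markers did not move as one. Their part in the Pcdhac2 level was not tested.

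Beta genes, which lack the constant cytoplasmic part, were more mixed. Counts ranged between 8 and 182 in AGNHW, 5 and 154 in vehicle, and 14 and 225 in sham, and these ranges overlapped widely. Of the 19 above 1 CPM, 5 passed as lower in vehicle than in sham (Pcdhb7, Pcdhb8, Pcdhb11, Pcdhb14 and Pcdhb17), none passed as higher and 14 did not pass. Pcdhb11 had 46 counts in AGNHW, 13 in vehicle and 48 in sham, and was 2.98-fold lower in vehicle than in sham (1.59 to 6.00). Pcdhb8 had 39 counts in AGNHW, 14 in vehicle and 51 in sham, and was 2.94-fold lower (1.61 to 5.76). In each of the 5, the AGNHW count was closer to that of sham than to that of vehicle. These genes were picked by a low vehicle count against sham, which favours such a position, so it is no separate result. Pcdhb7 had 83 counts in AGNHW, 36 in vehicle and 99 in sham, and was 2.22-fold lower in vehicle than in sham (1.504 to 3.35). Pcdhb14 had 68 counts in AGNHW, 32 in vehicle and 78 in sham, and Pcdhb17 had 117 counts in AGNHW, 64 in vehicle and 145 in sham. Pcdhb14 and Pcdhb17 no longer passed after the trend correction, while Pcdhb7, Pcdhb8 and Pcdhb11 did.

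The same 5 beta genes passed as higher in AGNHW than in vehicle, by 1.52 times for Pcdhb17 (1.11 to 2.10) up to 2.95 times for Pcdhb11 (1.57 to 5.95). The low vehicle counts enter both comparisons. Low vehicle levels were not limited to these 5. The ratio of vehicle over sham was below 1 in 18 of the 21 beta genes, and that of AGNHW over vehicle above 1 in 17. Pcdhb9 had ratios of 0.729 for vehicle over sham (0.555 to 0.954) and 1.46 for AGNHW over vehicle (1.12 to 1.92), and Pcdhb20 had ratios of 0.668 (0.519 to 0.856) and 1.295 (1.002 to 1.68), all under the size limit. Several beta genes differed from this. Pcdhb22, the beta gene with the most counts, had 182 in AGNHW, 154 in vehicle and 225 in sham, and passed in no comparison. Pcdhb5 had 72 counts in AGNHW, 56 in vehicle and 50 in sham, the highest ratio of vehicle over sham in the family at 1.39, and it passed as higher in vehicle only after the trend correction. Against sham, Pcdhb12 was 1.67 times higher in AGNHW (1.09 to 2.59), with 60 counts in AGNHW, 34 in vehicle and 37 in sham. Pcdhb10 was 1.51-fold lower in AGNHW (1.02 to 2.27), with 43 counts in AGNHW, 42 in vehicle and 67 in sham. Pcdhb16 was 1.68-fold lower (1.014 to 2.84), with 26 counts in AGNHW, 26 in vehicle and 45 in sham, and at 0.833 it had the lowest ratio of AGNHW over vehicle among genes above 1 CPM. Both of these lower calls were lost after the correction, and Pcdhb12 still passed.

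The gamma A isoforms were close to sham in the vehicle library. Their sum was 1351 counts in AGNHW, 853 in vehicle and 1176 in sham, with a ratio of vehicle over sham of 0.897 (0.821 to 0.981). The AGNHW sum was 1.32 times the vehicle sum (1.21 to 1.44) and 1.18 times the sham sum (1.09 to 1.28). Of the 11, Pcdhga5 alone passed as lower in vehicle than in sham, by 1.51-fold (1.09 to 2.10), with 101 counts in AGNHW, 59 in vehicle and 110 in sham. After the correction it passed by unshared sequence but not by transcripts. Pcdhga9 had 121 counts in AGNHW, 67 in vehicle and 83 in sham. It passed as higher in AGNHW than in vehicle, at 1.504 times (1.11 to 2.06), and than in sham, at 1.502 times (1.13 to 2.01). Pcdhga3, with the most counts of the gamma A isoforms, had 193 in AGNHW, 111 in vehicle and 162 in sham and passed in no comparison.

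Among the 7 gamma B isoforms, 3 passed as lower in vehicle than in sham and also after the correction. Pcdhgb2 had 87 counts in AGNHW, 36 in vehicle and 96 in sham, and was 2.16-fold lower in vehicle than in sham (1.46 to 3.26) and 2.01 times higher in AGNHW than in vehicle (1.35 to 3.06). Pcdhgb1 had 69 counts in AGNHW, 35 in vehicle and 72 in sham, and was 1.66-fold lower in vehicle than in sham (1.10 to 2.57) and 1.64 times higher in AGNHW than in vehicle (1.08 to 2.54). Pcdhgb8, which the annotation calls a polymorphic pseudogene, had 17 counts in AGNHW, 9 in vehicle and 30 in sham. Its vehicle level was 2.69-fold lower than its sham level (1.25 to 6.45), a wide interval at such low counts. Pcdhgb6 went the other way, with 148 counts in AGNHW, 126 in vehicle and 123 in sham, a ratio of vehicle over sham of 1.27 whose interval (0.98 to 1.64) included 1. The gamma B sum had a ratio of vehicle over sham of 0.80 (0.693 to 0.922), and without Pcdhgb6, which holds the most counts, it was 0.647.

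The gamma C-type isoforms held 51.8% of gamma counts in AGNHW, 50.3% in vehicle and 54.7% in sham, and they differed among themselves. Pcdhgc5, known to bind GABA receptors at inhibitory synapses, had 1235 counts in AGNHW, 713 in vehicle and 1348 in sham. It was 1.53-fold lower in vehicle than in sham (1.39 to 1.68), the only gamma C-type isoform past the size rule there, and stood at 1.44 times in AGNHW over vehicle (1.31 to 1.58), under the size limit. Pcdhgc3, which in mice promotes the branching of cortical dendrites, had 477 counts in AGNHW, 279 in vehicle and 469 in sham, with ratios of 0.736 for vehicle over sham (0.63 to 0.86) and 1.42 for AGNHW over vehicle (1.23 to 1.66). Pcdhgc4, which is needed in mice for the survival of many inhibitory interneurons, had 270 counts in AGNHW, 198 in vehicle and 208 in sham. Its ratio was 1.18 for vehicle over sham (0.96 to 1.44), and 1.34 for AGNHW over sham (1.11 to 1.61). Pcdhgc4 was thus the one C-type isoform with a ratio of vehicle over sham above 1. Its share of the gamma C-type counts was 13.6% in AGNHW (12.1 to 15.2), 16.6% in vehicle (14.6 to 18.9) and 10.3% in sham (8.98 to 11.7), and the interval in sham overlapped neither of the others.

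The ratio of each member was also set against that of the rest of its subfamily, which was taken as a fixed value without its own counting error. Some genes can fall outside by counting error alone, and no share over all genes was computed for this. In the small gamma C-type group, each gene also weighs on the rest ratio of the others. For vehicle over sham, 11 of the 53 genes had an interval that left out the ratio of the rest of their subfamily. They were Pcdhb7, Pcdhb8, Pcdhb11, Pcdhb17, Pcdhga5, Pcdhgb2, Pcdhgb8 and Pcdhgc5 on the lower side, and Pcdhb5, Pcdhgb6 and Pcdhgc4 on the higher side. No alpha isoform was among them, at the lower counts of that cluster. For AGNHW over vehicle there were 9 such genes, and for AGNHW over sham 7.

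Other cadherin genes were counted for comparison. Of 11 nonclustered protocadherins, which are adhesion proteins encoded outside the clusters, 6 passed as lower in vehicle than in sham and none as higher, with a median log2 ratio of -0.66. After the trend correction 2 were lower and the median was -0.10. These were Pcdh15, which was among the 6, and Pcdh8, which had not passed before the correction. Pcdh15, a component of the tip links of hair cells, had 123 counts in AGNHW, 83 in vehicle and 237 in sham. For AGNHW over vehicle their median log2 ratio was 0.28, and 0.01 after the correction, with Pcdh9 the 1 gene past the rule before it and none after it. For AGNHW over sham the median was -0.51 with 4 lower, and -0.12 with none lower after the correction. Lower levels in vehicle were thus also measured outside the clusters. Of 13 classical cadherins, 6 were lower and 1 higher in vehicle than in sham, and 3 were lower after the correction. In AGNHW against vehicle none of these 13 passed, and against sham 6 were lower, none of them after the correction. Of 10 large atypical cadherins above 1 CPM, 2 were lower in vehicle than in sham (Fat3 and Fat4), none differed by the rule between AGNHW and vehicle, and 1 was lower in AGNHW than in sham (Fat3). None of these atypical cadherin calls was left after the correction.

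Among 18 measured chromatin regulators of the clusters, 10 passed as lower in vehicle than in sham and none as higher. Of all genes, 14.2% passed as lower. The median log2 ratio of the 18 was -0.60, and -0.05 after the trend correction. Ctcf, which joins promoters to enhancers here, was among the 10 at a ratio of 0.635, as were the cohesin genes Rad21 at 0.636 and Stag2 at 0.653. The cohesin genes Smc1a, at 1.08, and Smc3, at 0.751, did not pass. After the trend correction the only one of the 10 left was Rest, a repressor of neuronal genes. It had 40 counts in AGNHW, 18 in vehicle and 68 in sham. Rest was also the only one past the rule in AGNHW against vehicle, where it was higher, and in AGNHW against sham, where it was lower, and it passed in neither of these after the correction. Of 17 partners and processing enzymes of protocadherins, 4 were lower in vehicle than in sham (Adam10, Abi2, Nlgn1 and Wasf1) and 1 after the correction (Wasf1). Adam10, a protease that sheds protocadherin ectodomains, had 564 counts in AGNHW, 342 in vehicle and 898 in sham. None of the 17 passed in AGNHW against vehicle, and Adam10 alone was lower in AGNHW than in sham, which it was not after the correction.

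Markers of cell types were read beside these results. The 12 neuron markers summed to 8325 CPM in AGNHW, 8689 CPM in vehicle and 8392 CPM in sham, and only Map2 passed, as lower in vehicle than in sham. The sum was highest in vehicle, but it is carried by a few abundant genes, and 7 of the 12 had a ratio of vehicle over sham below 1. The median log2 ratio of the 12 was -0.19 for vehicle over sham, and -0.02 after the trend correction. The part of neuron content in the protocadherin levels was not tested. The vehicle library stood apart in RNA of another tissue. All 6 measured pituitary markers passed as higher there, with sums of 4.60 CPM in AGNHW, 3748 CPM in vehicle and 4.52 CPM in sham, and 2 listed markers were at 0 in AGNHW and 3 in sham. Growth hormone (Gh) alone had 4 counts in AGNHW, 39065 in vehicle and 0 in sham. The AGNHW and sham libraries held next to none of this RNA. All 5 red blood cell markers were also highest in vehicle, at 65.05 CPM in AGNHW, 163.1 CPM in vehicle and 52.82 CPM in sham. Choroid plexus markers summed to 668.7 CPM in AGNHW, 978.6 CPM in vehicle and 550.3 CPM in sham, with 4 of 10 higher in vehicle than in sham.

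Of 8 microglia markers, 4 were lower in vehicle than in sham and none higher, with sums of 199.3 CPM in AGNHW, 179 CPM in vehicle and 248.1 CPM in sham. Of 8 astrocyte markers, 2 were lower (Aqp4 and Gfap) and 1 higher (Aldh1l1), with sums of 3514 CPM in AGNHW, 3464 CPM in vehicle and 3685 CPM in sham. Of 8 endothelial markers, 2 were lower and 1 higher, with sums of 243 CPM in AGNHW, 218.5 CPM in vehicle and 218.4 CPM in sham. The part of tissue makeup in the protocadherin results was not tested, and with 1 library per group it cannot be told apart from the condition.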

How the data were processed

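The authors deposited raw read counts per gene symbol for 3 libraries. HTSeq 0.6.0, TopHat2 2.0.12 and Bowtie2 2.2.3 and the build mm9 are named, per the submitters' processing notes. Strand, treatment of shared reads and annotation are not stated there; how reads from constant exons were assigned is therefore unknown, and isoform counts are uncertain where sequence is shared. No counted gene had a total below 21 over the 3 libraries. The annotated symbols Pcdha4, Pcdha8, Pcdha11, Pcdhb1 and Pcdhga10 were not among the counted symbols, so they could not be analysed. Pcdha10 was counted but had no matching symbol in the GENCODE annotation.

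Counts were scaled to CPM with TMM factors from edgeR 4.0.16 (R 4.3.3): 1.00 for AGNHW, 0.968 for vehicle and 1.03 for sham. Ratios have exact conditional binomial intervals, and log2 ratios used a prior count of 5. The length and GC trend was a cubic surface fitted by least squares, using the longest basic GENCODE M21 transcript (GRCm38; 52 of 53 members matched). Shared sequence was taken from the same annotation, as exon positions that overlap exons of another gene. Similarity of sequence between members was not examined. Python 3.11.15 was used (scipy 1.17.1, numpy 2.4.6, matplotlib 3.10.9, pandas 2.3.3), and the code was tested on simulated data.

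Members, lists and rules were chosen with earlier results of these data known. C-type isoforms, members past the size rule, the highest of each subfamily and the extreme ratios were named; for other lists, the largest ratios. Genes named outside this rule (Pcdha7, Pcdhga4, Pcdhga11, Ctcf, Rad21, Stag2, Smc1a, Smc3, Wasf1, Pcdh8, Pcdhb4, Pcdhb6, Pcdhb9, Pcdhb20) were chosen after their values were seen. Alternatives were plain CPM, DESeq2 1.42.0 size factors, no minimum CPM, a 2-fold limit, a prior count of 1 and the correction.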

Additional observations from a re-analysis of the deposited data

How the results depend on the processing

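No paired analysis was possible because each group had 1 library, which also leaves no replicate to omit. Of 147 recomputed values, 121 stayed within the set tolerance. The counts of members that moved past the tolerance were these. At a 2-fold limit, 9 were lower in vehicle than in sham, beside 4.57% of all genes. Shares among genes between 1 and 10 CPM, where most members lie, were not computed for this or the other alternatives. The shares of all genes given here therefore do not match the members in depth. At this limit 6 were higher in AGNHW than in vehicle, beside 1.125% of all genes. For AGNHW against sham 0 were lower and 0 higher at this limit, beside 1.23% lower and 1.15% higher of all genes. After the length and GC correction, 1 member (Pcdhb5) was higher in vehicle than in sham by either reading, 7 were higher in AGNHW than in vehicle by transcripts (11 by unshared sequence), and 0 were lower in AGNHW than in sham by transcripts (2 by unshared sequence). With no minimum CPM, 5 were lower in AGNHW than in sham, beside 5.69% of all genes. With plain CPM, 1 was higher in AGNHW than in sham, beside 2.96% of all genes.

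The median log2 ratio of vehicle over sham over the members was -0.52 with plain CPM, -0.22 after the correction and -0.31 with the trend read at unshared exon sequence. The corrected medians were 0.37 for AGNHW over vehicle and 0.0374 for AGNHW over sham.

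Correcting the sums, reading the trend at unshared sequence and leaving out the member with the most counts were chosen after seeing the data. The corrected beta sums had ratios of 0.938 and 0.925 for vehicle over sham, 1.16 and 1.17 for AGNHW over vehicle, and 1.08 and 1.07 for AGNHW over sham. Without Pcdhac2, the alpha C-type ratio was 0.833 for AGNHW over vehicle, which turns its direction, and 0.355 for AGNHW over sham. These values are those of Pcdhac1 alone, and the interval of the first (0.311 to 2.23) includes 1. Without Pcdhgb6, gamma B was at 0.647 for vehicle over sham. Without Pcdhgc5, gamma C-type was at 0.872 for vehicle over sham and 1.14 for AGNHW over sham. The causes of these shifts were not tested. Depth limits the alternate alpha isoforms, Pcdhac1, Pcdhb2, Pcdhb4, Pcdhb6, Pcdhb21 and Pcdhgb8, at counts of 38 or fewer in each library. Among these, Pcdhgb8 and some alternate alpha isoforms passed the size rule.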
